A study of Mus musculus with 8 samples.

Results

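The Sox genes described here are 10 members of the Sox family of transcription factors, taken by their symbols: Sox4, Sox11 and Sox12 of the SoxC group, Sox5 and Sox6 of the SoxD group, Sox8, Sox9 and Sox10 of the SoxE group, and Sox17 and Sox18 of the SoxF group. Every Affymetrix probe set annotated with exactly 1 of these symbols was used, which gave 38 of the 45037 probe sets that are not controls (17 SoxC, 11 SoxD, 7 SoxE and 3 SoxF) and 10 of 18193 genes. The cells came from calluses of bicortical, pinned femoral fractures in male C57/Bl6 mice aged 10 to 12 weeks, without any other treatment or genetic change in either group, and were sorted without culture. Skeletal stem cells (SSCs), which stand at the top of the skeletal lineage, were sorted as CD51+CD200+ cells negative for CD45, Ter119, Tie2, Thy1, 6C3 and CD105. Bone cartilage stroma progenitors (BCSPs), which lie downstream of them, were sorted as CD51+CD105+ cells negative for CD45, Ter119, Tie2, Thy1 and 6C3. There were 4 experiments, each with sorts of 10000 cells and with 1 array for either population. The labels give day 7 after fracture and the study's methods a later day.

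Sox proteins bind DNA through a shared HMG box, which fits into the minor groove at sequences around AACAAT and bends the DNA. Sox9 is required for mesenchymal cells to become chondrocytes, and Sox5 and Sox6, which have no activation domain of their own, bind beside it at cartilage genes such as Col2a1 and Acan. SoxC proteins are known from progenitors of many tissues, including the mesenchyme of the growing skeleton and joints, Sox10 from Schwann cells and melanocytes, and SoxF proteins from blood and lymphatic endothelium.

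The values are activity scores of Gene Expression Commons, in which the signal of a probe set is placed within the range that the same probe set takes over many public arrays. A score runs from about -100 (inactive) to 100 (active), and 0 is the threshold of that probe set. A score is neither an amount nor a log value and levels off at both ends, so scores of different genes do not rank their RNA, and all differences below are in points of the score, SSC minus BCSP. On each array 29.0% to 31.0% of all probe sets scored above 0, and the array medians lay between -34.2 and -24.8. As a reference for inactive genes, 42 probe sets of 29 genes of retina, liver, germ cells and other unrelated tissues were used, whose 95th percentile lay between -17.7 and -7.45 on the arrays. Of the chondrocyte markers 6 of 6 and of the osteoblast markers 3 of 3 measured were above 0 on all 8 arrays, 0 of 5 macrophage markers were (4 were below 0 on all), and 0 of 4 B lymphocyte markers were (3 were below 0 on all). Over all genes the share above 0 on all 8 arrays was 25%, each read from its highest-scoring probe set. Experiment, mouse and array run cannot be told apart in this design, and a legend of the study attributes the arrays to different mice.

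The Sox genes differed in score between groups and, in SoxE and SoxC, within them. Of their 38 probe sets, 12 scored above 0 on all 8 arrays, next to 16.1% of all probe sets, 20 scored below 0 on all 8, next to 49.5% of all, and 6 lay on both sides. The 12 active probe sets were 8 of 11 in SoxD, 3 of 7 in SoxE, 1 of 17 in SoxC and 0 of 3 in SoxF. With each gene read from its highest-scoring probe set (by the mean of the 8 arrays), called representative below, Sox4, Sox5, Sox6 and Sox9 were above 0 on all 8 arrays, 4 of 10 genes next to 25% of all genes. The median over the probe sets of a group in SSCs and BCSPs was 90.8 and 90.9 in SoxD, 25.9 and 26.1 in SoxE, -54.7 and -60.3 in SoxC and -86.0 and -39.8 in SoxF, next to -31.0 and -30.4 over all probe sets. The SoxE medians are those of the single Sox8 probe set. All Sox9 probe sets lay far above it and all Sox10 probe sets lay below 0, so these medians are no common level of the group. The medians of SSCs and BCSPs lay furthest apart in SoxF. There they came from different probe sets, of Sox17 in SSCs and of Sox18 in BCSPs, so their gap is the difference of no probe set. The median of the differences of the 3 SoxF probe sets was -23.7.

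**Figure D1:**
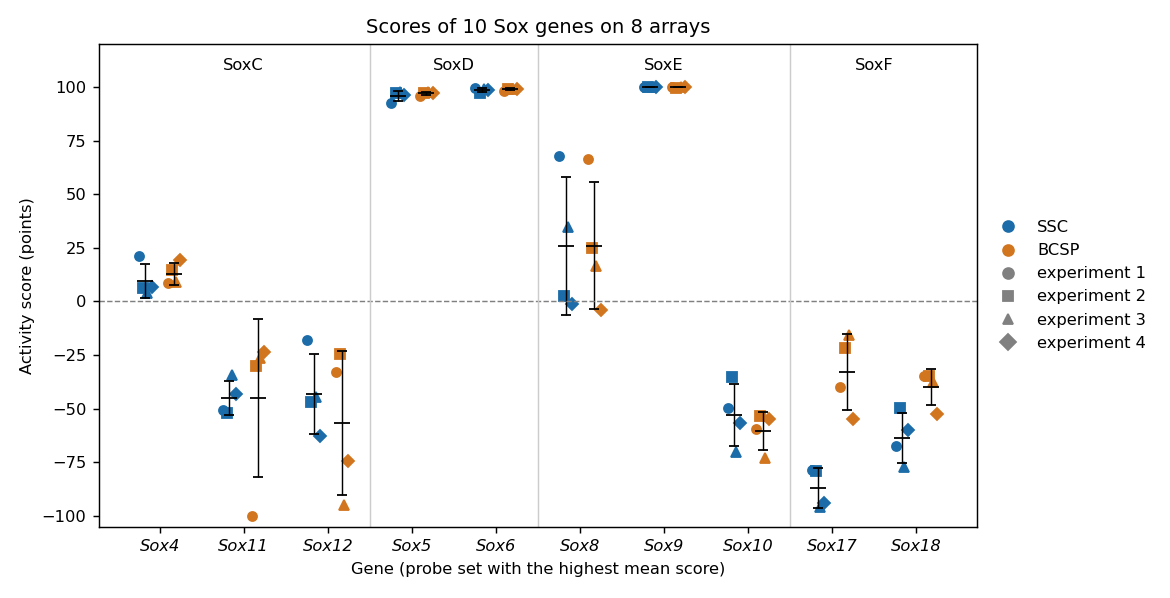
Activity score (points, vertical axis) of the representative probe set of each of the 10 Sox genes on 4 SSC arrays (blue) and 4 BCSP arrays (orange), with a marker shape for each experiment and the mean ± SD of each population as black bars. Sox5, Sox6 and Sox9 lie above 92 on every array, Sox4 lies just above the dashed threshold of 0, and Sox10, Sox11, Sox12, Sox17 and Sox18 lie below it on all 8.

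Among the SoxE genes, Sox9, the regulator that commits cells to cartilage, lay at the upper end of the scale in both populations. Its representative probe set scored 100, 99.83, 99.94 and 100 on the SSC arrays of experiments 1 to 4 and 99.97, 99.72, 99.94 and 100 on the BCSP arrays. The populations overlapped fully, at 99.94 ± 0.080 in SSCs and 99.91 ± 0.127 in BCSPs (SD, n = 4 each). The lowest of these scores exceeded those of 99.7% of all probe sets on its array. The other Sox9 probe sets had means of 98.8 and 95.9 in SSCs and 99.1 and 95.8 in BCSPs, and the lowest single Sox9 score was 88.1, on the SSC array of experiment 4. The score levels off at this end, so a difference in RNA could be larger than these points show.

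Sox8, a SoxE gene whose roles partly overlap with those of Sox9, was the 1 member whose representative probe set lay on both sides of 0. Its single probe set scored 67.6, 2.47, 34.8 and -1.08 on the SSC arrays of experiments 1 to 4 and 66.6, 25.0, 16.6 and -3.87 on the BCSP arrays. Both arrays of experiment 1 were high and both of experiment 4 were just below 0, while the populations overlapped over their whole range. The means were 25.9 ± 32.1 in SSCs and 26.1 ± 29.6 in BCSPs (SD, n = 4 each), and the difference was -0.125 (95% confidence interval -44.2 to 44.0, adjusted p = 1 from limma). All 8 scores lay above the 95th percentile of the inactive reference.

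Sox10, the SoxE factor of Schwann cells and melanocytes, was below 0 on all 8 arrays with each of 3 probe sets. The representative one scored -49.4, -35.4, -70.2 and -56.5 in SSCs and -59.5, -53.6, -73.0 and -54.9 in BCSPs, with overlap. Its means were -52.9 ± 14.5 and -60.3 ± 8.89 (SD, n = 4 each), and no Sox10 score exceeded the 95th percentile of the inactive reference on its array. Of 8 measured Schwann cell markers 2 were above 0 on all 8 arrays, next to 25% of all genes. The 2 were Cdh19, a cadherin, at 92.8 ± 2.07 in SSCs and 93.2 ± 1.62 in BCSPs (SD, n = 4 each), and S100b, a calcium-binding protein that chondrocytes also make, at 66.3 and 67.7. The neuregulin receptor Erbb3 (-57.8 and -25.6) and the neurotrophin receptor Ngfr (-53.0 and -54.1) were below 0 on every array, 5 of the 8 markers in all, and Gfra3 was above 0 on 5 arrays (means 13.9 and 29.6). The median of the Schwann cell markers lay between -27.0 and -12.6 on SSC arrays and between -15.2 and -7.90 on BCSP arrays. Of 6 melanocyte markers 0 were above 0 on all 8 arrays, with 4 below 0 on every array. Among them Mitf, the melanocyte regulator, was above 0 on 6 arrays with means of 8.11 and 4.57, while the pigment enzyme genes Tyr (-19.7 and -43.9) and Tyrp1 (-65.8 and -47.8) and the melanosome gene Mlana (-79.6 and -88.03) had means below 0 in both populations.

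Both SoxD genes, Sox5 and Sox6, whose proteins pair through coiled coils and act beside Sox9, scored near the upper end in both populations. The representative Sox5 probe set scored 92.6, 97.1, 97.7 and 96.4 in SSCs and 96.0, 97.2, 97.6 and 97.2 in BCSPs. That of Sox6 scored 99.4, 97.2, 99.1 and 98.6 in SSCs and 98.1, 99.2, 99.2 and 99.04 in BCSPs. SSCs and BCSPs overlapped for both genes, and the lowest of the 16 scores was the Sox5 score of the SSC array of experiment 1. The difference was -1.05 points for Sox5 (95% confidence interval -5.46 to 3.36) and -0.313 points for Sox6 (95% confidence interval -4.06 to 3.43), each with an adjusted p of 1 from limma.

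The probe sets of Sox6 lay close together and those of Sox5 did not. All 4 Sox6 probe sets were above 0 on all 8 arrays, the lowest of them between 75.5 and 87.6. Of 7 Sox5 probe sets, 3 had means above 90 in both populations. Another was above 0 on all 8 arrays but ranged from 4.70 to 73.4. The other 3 Sox5 probe sets crossed 0, with 6 arrays above it for 2 of them and 2 arrays for the lowest (means 5.91 in SSCs and -4.26 in BCSPs). Probe sets of a gene can report different transcripts, and which transcripts these probes match was not examined.

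**Figure D2:**
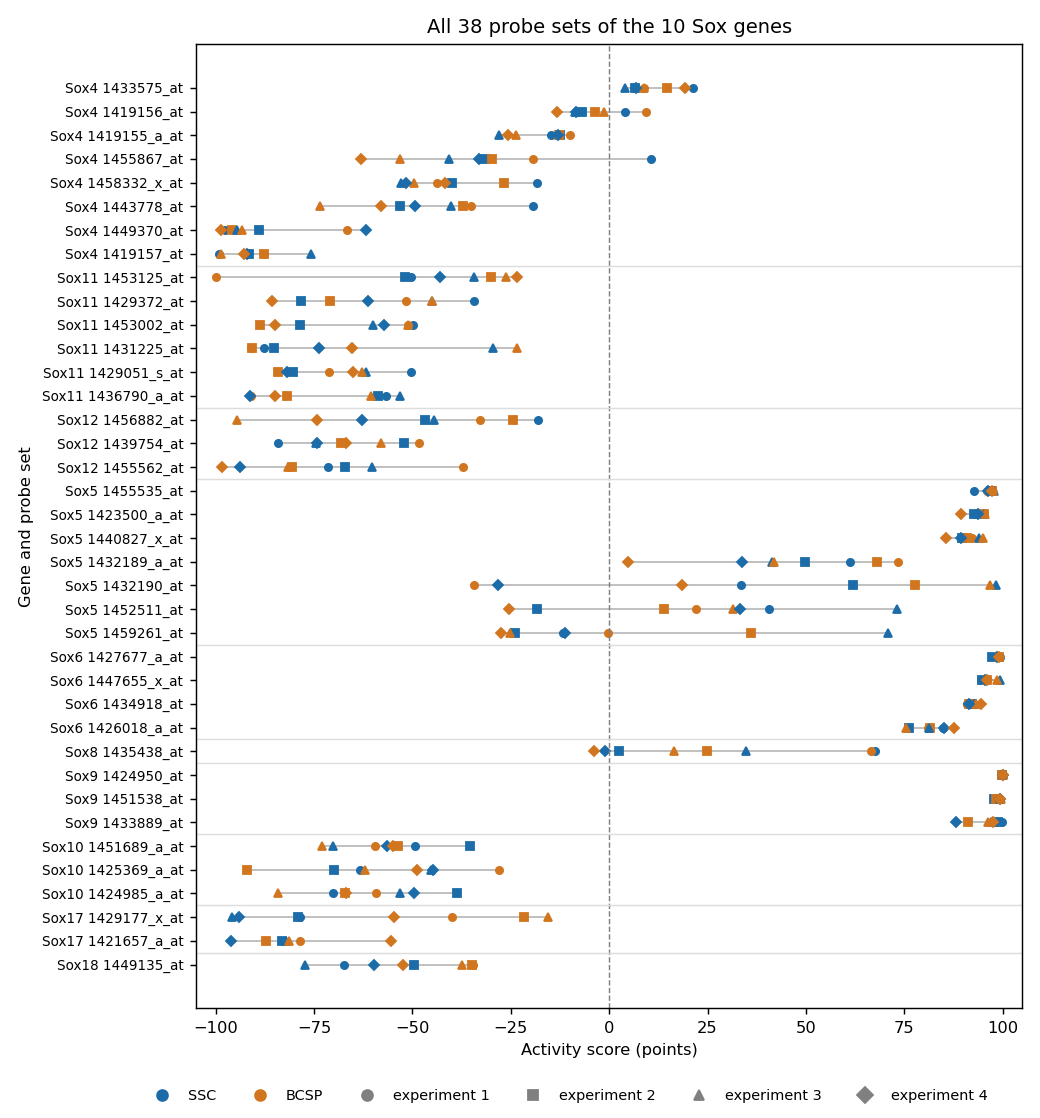
Activity score (points, horizontal axis) of all 38 probe sets of the 10 Sox genes on 4 SSC arrays (blue) and 4 BCSP arrays (orange), with a marker shape for each experiment and a grey line from the lowest to the highest score. The 4 Sox6 and 3 Sox9 probe sets stay above 75 on every array, whereas the 7 Sox5 probe sets run from tight clusters above 85 to spreads across 0.

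The regions before the starts of Sox5 and Sox6 are shown because these genes scored alike near the upper end and encode partners that bind the family's own motif. RefSeq windows (build GRCm38.p6) of the 250 bases before an annotated start were searched for AACAAT on both strands, that is for AACAAT and for its reverse complement ATTGTT. Sequences were read for 6 of the 10 genes (Sox4, Sox5, Sox6, Sox8, Sox11 and Sox12) in 11 windows, of which 1 held the motif, next to 9.42% of 32851 windows of all genes. It was 1 of the 6 windows of Sox6, is the one printed for that gene because it holds the motif, and the other 5 hold none. It holds the motif once in each orientation, 5 bases apart. Of the 3096 windows of all genes that hold the motif, 153 hold both orientations, which is 0.466% of all windows. The window was picked for its motif, so no rarity is read from these shares. The Sox5 window (chr6:143947107-143947356, minus strand) holds none. Capitals mark the motif in this Sox6 window (chr7:115824711-115824960, minus strand), and both are written in the direction of the gene.
Sox6: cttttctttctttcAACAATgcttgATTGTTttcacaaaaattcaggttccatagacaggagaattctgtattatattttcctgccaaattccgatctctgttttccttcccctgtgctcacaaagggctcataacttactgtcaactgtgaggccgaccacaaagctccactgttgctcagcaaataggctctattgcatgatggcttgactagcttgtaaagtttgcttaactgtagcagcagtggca
Sox5: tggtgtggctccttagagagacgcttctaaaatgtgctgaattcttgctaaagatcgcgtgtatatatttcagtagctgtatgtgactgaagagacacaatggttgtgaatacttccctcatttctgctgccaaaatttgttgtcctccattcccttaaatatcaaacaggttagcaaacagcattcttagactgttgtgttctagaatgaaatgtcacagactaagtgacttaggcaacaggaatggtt
A match of these letters is a description and not a binding site, and the arrays measured no binding.

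Cartilage genes known as targets of Sox9, Sox5 and Sox6 were active throughout. Of 22 such genes, 22 were above 0 on all 8 arrays, next to 25% of all genes. The median score of the 22 was 98.1 in SSCs and 98.4 in BCSPs. Col27a1, a fibrillar collagen of cartilage, stood highest at 99.99 and 100, and Matn1, a matrilin of cartilage matrix, lowest at 57.2 ± 10.1 in SSCs and 55.8 ± 12.1 in BCSPs (SD, n = 4 each). The largest differences in this list, those of the matrilin Matn4 (66.6 ± 18.7 and 58.6 ± 32.3, SD, n = 4) and of the hypertrophic cartilage collagen Col10a1 (79.3 ± 12.98 and 77.3 ± 13.55, SD, n = 4), were smaller than their SDs. Of 18 other regulators of cartilage and bone formation, 11 were above 0 on all 8 arrays, next to 25% of all genes, and 2 were below 0 on all 8. Fgfr3, a receptor that restrains chondrocyte growth, was highest at 99.4 and 99.5, and the growth factor gene Bmp4 was lowest at -87.2 and -83.6. In neither list did limma call a gene between SSCs and BCSPs.

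The SoxC genes lay around or below their thresholds. Sox4, known from progenitor cells of many tissues and from osteoblast development, scored just above 0 with its representative probe set, at 21.3, 6.46, 3.98 and 6.71 in SSCs and 8.73, 14.6, 8.85 and 19.3 in BCSPs. The SSC array of experiment 1 was highest and the populations overlapped, with means of 9.61 ± 7.88 and 12.9 ± 5.08 (SD, n = 4 each). These scores exceeded the 95th percentile of the inactive reference on all 8 arrays. The second highest Sox4 probe set did so as well, although it was above 0 on 2 arrays alone, with means of -4.98 in SSCs and -2.27 in BCSPs. One more was above 0 on 1 array, the SSC array of experiment 1 at 10.7, and the other 5 were below 0 on all 8. The call of Sox4 as active therefore rests on 1 of its 8 probe sets.

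Sox11, which overlaps with Sox4 in mesenchymal progenitors, was below 0 on all 8 arrays with each of 6 probe sets. Its representative probe set scored -50.4, -52.0, -34.5 and -43.03 in SSCs and -99.95, -30.0, -26.2 and -23.4 in BCSPs. The BCSP array of experiment 1 lay at the lower end of the scale, and the other 3 BCSP arrays lay above every SSC array. The means were -45.0 ± 8.02 and -44.9 ± 36.8 (SD, n = 4 each), a difference of -0.0725 (95% confidence interval -39.1 to 38.9, adjusted p = 1 from limma). Without the BCSP array of experiment 1 the difference was -18.4. Sox12, the weakest activator of the group, was below 0 on all 8 arrays with each of 3 probe sets. The representative one scored -18.1, -46.7, -44.6 and -62.7 in SSCs and -32.8, -24.3, -94.7 and -74.2 in BCSPs, with means of -43.1 ± 18.5 and -56.5 ± 33.5 (SD, n = 4 each). Its populations overlapped, and the BCSP arrays of experiments 3 and 4 lay below every SSC array.

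Of 7 genes linked with SoxC proteins in other tissues and in the skeleton, 3 were above 0 on all 8 arrays, next to 25% of all genes. The 3 were Gdf5, a growth factor of the forming joint, at 98.8 and 98.7, the signalling ligand Wnt5a at 87.5 and 89.3 and the Wnt receptor gene Fzd1 at 63.7 and 66.6. The neuronal tubulin gene Tubb3 (-45.8 ± 9.26 in SSCs and -56.2 ± 25.8 in BCSPs, SD, n = 4) was lowest, and Tead2, a partner of the Hippo pathway, scored -44.8 and -50.3. Both were among the 3 that lay below 0 on every array, and limma called none of the 7 between the populations.

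SSCs and BCSPs were then compared for every probe set, which asks whether any Sox gene separates the stem cell from its progenitor. With limma, 0 of 38 Sox probe sets passed an adjusted p of 0.05, and 0 of all 45037 did (0%), with 1081 of all at an unadjusted p under 0.05 where 2252 would be given by chance. Of the Sox probe sets, 2 were under 0.05 before adjustment, both of SoxF. SSCs lay below BCSPs in 4 of 4 experiments for 3 of 38 Sox probe sets (of Sox9, Sox17 and Sox18), next to 7.24% of all, and above them for 0 of 38, next to 5.43% of all. SSC and BCSP scores did not overlap for 1 Sox probe set, of Sox17 and lower in SSCs, next to 0.773% of all lower and 0.653% of all higher. The Sox9 probe set with this direction differed by -0.39 to -0.13 points within experiments, around means of 98.8 and 99.1. The median difference was 0.0888 over all Sox probe sets, 2.10 in SoxC, -0.145 in SoxD, 0.143 in SoxE and -23.7 in SoxF, next to -0.605 over all probe sets.

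**Figure D3:**
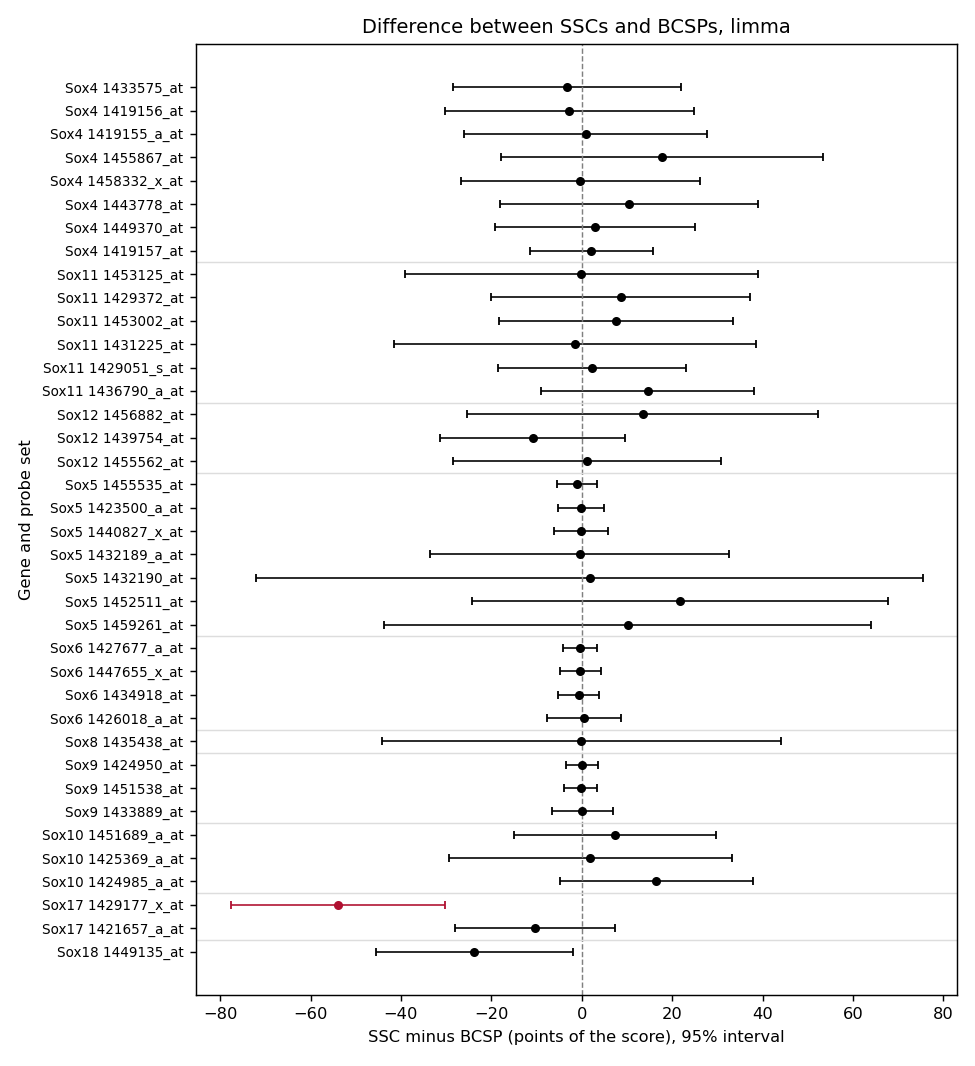
Difference SSC minus BCSP (points of the score, horizontal axis) for the 38 Sox probe sets, with limma's 95% confidence interval. Red marks the 1 probe set, of Sox17, whose SSC and BCSP scores do not overlap; 36 of the intervals include 0, and those of this probe set and of Sox18 do not.

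The SoxF gene Sox17, a factor of arterial endothelium and of endoderm, had the largest difference of the Sox genes. Its representative probe set scored -78.6, -79.0, -95.8 and -94.1 on the SSC arrays of experiments 1 to 4 and -39.9, -21.7, -15.6 and -54.6 on the BCSP arrays. Every SSC score lay below every BCSP score, and all 8 lay below 0 and below the 95th percentile of the inactive reference on their own array. The means were -86.9 ± 9.37 and -33.0 ± 17.7 (SD, n = 4 each), a difference of -53.9 ± 10.6 (SE) with a 95% confidence interval of -77.7 to -30.2. The adjusted p was 1 from limma over all probe sets and 0.933 with the experiment as a block. The other Sox17 probe set did not show this separation, at -82.6, -83.2, -82.1 and -96.2 in SSCs and -78.6, -87.1, -81.3 and -55.4 in BCSPs. Its difference of -10.4 had a 95% confidence interval of -28.1 to 7.35. Averaged over both probe sets the Sox17 difference was -32.2.

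Sox18, a factor of blood and lymphatic vessel formation with 1 probe set, scored -67.4, -49.5, -77.3 and -59.9 in SSCs and -34.7, -34.8, -37.4 and -52.3 in BCSPs. It was lower in SSCs within each experiment, with differences of -32.7, -14.7, -39.9 and -7.6 points, but the SSC array of experiment 2 lay above the BCSP array of experiment 4. The means were -63.5 ± 11.7 and -39.8 ± 8.43 (SD, n = 4 each), and the difference was -23.7 ± 9.68 (SE) with a 95% confidence interval of -45.5 to -1.97 and an adjusted p of 1 from limma. The interval reached past 0 when any single array other than the SSC array of experiment 2 or the BCSP array of experiment 4 was left out, for instance -43.3 to 5.03 without the SSC array of experiment 3. For both SoxF genes the mean BCSP scores lay below 0 but closer to it than the mean SSC scores. Of the 29 genes of the inactive reference, 2 showed such a difference without overlap, Ins2, the insulin gene, at -60.9 and -31.9 and Slc17a7, a glutamate transporter gene of neurons, at -62.3 and -38.0 in SSCs and BCSPs. Their differences of -29.0 and -24.3 were as large as that of Sox18. In sorted populations measured in bulk, fewer cells of a type and less RNA per cell cannot be told apart.

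Most endothelial markers also had lower means in SSCs, at scores below 0. Of 13 endothelial markers, 12 were below 0 on all 8 arrays, 11 had a lower mean in SSCs, and their median difference was -12.9, next to 23872 of all 45037 probe sets with a lower mean in SSCs. The median of the 13 lay between -79.5 and -65.5 on SSC arrays and between -77.7 and -38.5 on BCSP arrays. Robo4, a guidance receptor of endothelium, was the 1 marker without overlap, at -83.2 ± 5.89 in SSCs and -43.6 ± 11.4 in BCSPs (SD, n = 4 each), and the tight junction gene Cldn5 scored -92.6 ± 7.18 and -58.7 ± 26.8 (SD, n = 4 each). Tek, which encodes the Tie2 protein that the sort selected against, was lowest at -91.6 and -78.7. The other 2 markers had a higher mean in SSCs. The endothelial cadherin gene Cdh5 scored -25.3 ± 4.10 in SSCs and -53.96 ± 29.5 in BCSPs (SD, n = 4 each) and was higher in SSCs in 4 of 4 experiments, with overlap, and the adhesion gene Pecam1 scored -79.4 and -82.7. The transcription factor gene Erg, which cartilage also uses, was the 1 marker above 0, at 57.5 ± 4.78 and 58.9 ± 7.33 (SD, n = 4 each). Of 4 lymphatic markers 0 were above 0 on all 8 arrays and 3 were below 0 on all. The hyaluronan receptor gene Lyve1 scored -78.9 ± 28.4 in SSCs and -28.3 ± 14.0 in BCSPs (SD, n = 4 each), with overlap. Pdpn, a membrane glycoprotein gene, had means of -16.1 and -15.2, and Flt4, a receptor of lymphatic growth, means of -39.9 and -28.2 with 1 array above 0. Limma called none of these genes, and their part in the Sox17 and Sox18 differences was not tested. Among the sort genes Eng, which encodes CD105, scored -45.6 ± 14.4 in SSCs and 12.8 ± 24.9 in BCSPs (SD, n = 4 each), the direction set by the gate, and Cd200 scored 97.5 and 96.6.

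Of all probe sets of other genes, the one whose centred scores ran closest to Sox17 over the 8 arrays belonged to Cd93, a receptor of endothelium, with a mean absolute difference of 6.21 points. Cd93 scored -82.6, -92.5, -83.6 and -98.3 in SSCs and -44.8, -18.6, -34.9 and -58.5 in BCSPs with this probe set. A second Cd93 probe set also had no overlap. The other 3 overlapped, and 2 of them had a higher mean in SSCs, by 7.08 and 20.95 points. The second closest to Sox17 was 6330415G19Rik, at 8.27 points. For Sox18 the closest was Igf2bp1, an RNA-binding protein gene, at 3.78 points. The second closest was Ptprb, the phosphatase of vascular endothelium, at 4.30 points, and both second places are named here after their values were seen. These are descriptions over 8 arrays, chosen among all probe sets.

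**Figure D4:**
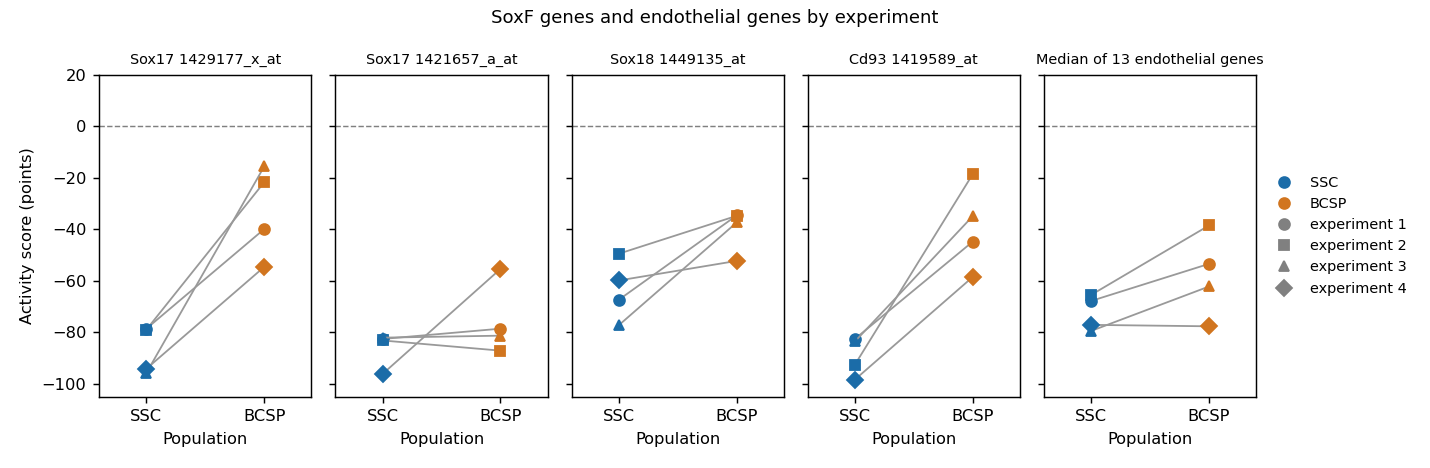
Activity score (points, vertical axis) of the 3 SoxF probe sets, of Cd93 and of the median of 13 endothelial genes in SSCs (blue) and BCSPs (orange), with a grey line joining the 2 arrays of each experiment. All lines of the representative Sox17 probe set (first panel), Sox18 and Cd93 go up from SSC to BCSP and end below the dashed threshold of 0, while the other Sox17 probe set and the endothelial median do not go up in every experiment.

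The experiments were compared as well, with an F test of the experiment term in limma. Between experiments 448 of all probe sets differed at an adjusted p under 0.05 (0.995%), and 0 of 38 Sox probe sets did. Before adjustment 4 of the 38 Sox probe sets were under 0.05, next to 11227 of all 45037, which is a larger share. The Sox probe sets described below are thus examples and no sign of a stronger experiment effect in this family. For 28 of 38 Sox probe sets the experiment means spanned more points than the mean difference between the 2 arrays of an experiment, next to 83.8% of all probe sets. Sox8 had experiment means of 67.07, 13.7, 25.7 and -2.48 (adjusted p = 0.0933 from limma). A Sox11 probe set other than the representative one came closest to the threshold, at -87.7, -85.1, -29.6 and -73.8 in SSCs and -90.9, -90.7, -23.4 and -65.2 in BCSPs. Both arrays of experiment 3 were high for it (adjusted p = 0.0623 from limma), and it passed when arrays were quantile normalized (0.0479) or centred on their medians (0.0415). For none of the other 5 Sox11 probe sets were both arrays of experiment 3 above all others. One of the Sox5 probe sets that crossed 0 was likewise highest in experiment 3, at 98.2 in SSCs and 96.8 in BCSPs, and lowest at -34.4 on the BCSP array of experiment 1 and -28.2 on the SSC array of experiment 4 (adjusted p = 0.121 from limma). The remaining one of the 4 was the Sox5 probe set that ranged from 4.70 to 73.4, with experiment means of 67.3, 58.9, 41.5 and 19.3, highest in experiment 1 (adjusted p = 0.160 from limma).

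Control probe sets also differed between experiments. The hybridization controls had medians of 68.3 and 72 on the arrays of experiment 1, 32.8 and 42.0 on those of experiment 3 and -25.4 to 8.24 on the others. The 3' minus 5' score of actin was 59.6 and 64.9 points in experiment 3 and 23.1 to 44.2 in the others. That of Gapdh did not set experiment 3 apart, at 54.7 and 49.1 points there, 53.9 and 71.9 in experiment 4 and 21.3 to 44.2 in experiments 1 and 2. Their part in the scores of Sox8, Sox5 and Sox11 was not tested.

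**Figure D5:**
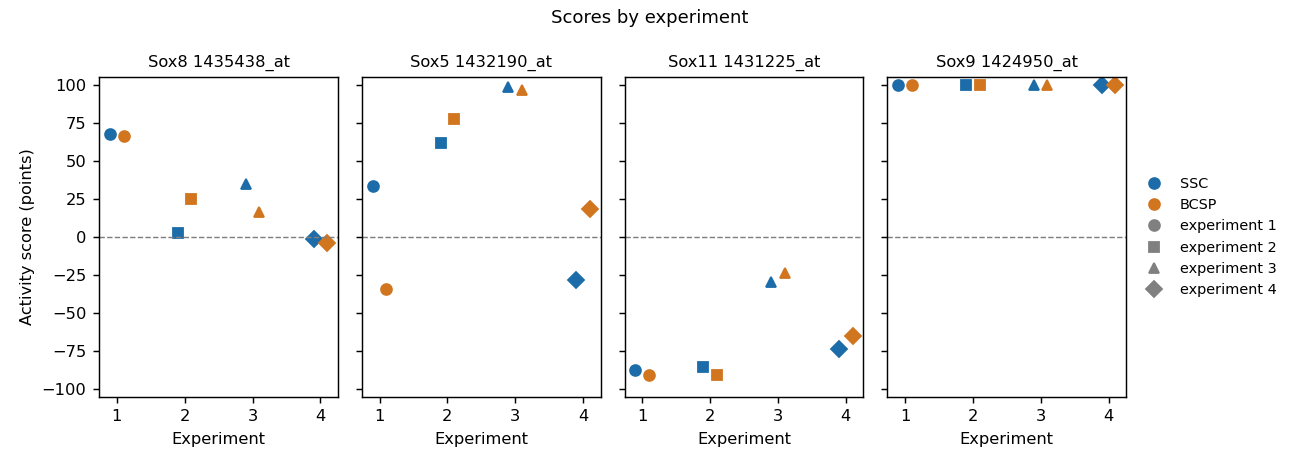
Activity score (points, vertical axis) by experiment (horizontal axis) of the Sox8 probe set, a Sox5 and a Sox11 probe set, and the representative Sox9 probe set for contrast, on SSC arrays (blue) and BCSP arrays (orange). Sox8 is highest in experiment 1 and below the dashed threshold of 0 in experiment 4, the Sox5 and Sox11 probe sets are highest in experiment 3, and Sox9 lies between 99.72 and 100 throughout.

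For the members whose scores ranged over more than 20 points, the closest other gene was also found. It was Sap30l for Sox8 (6.23 points), Vgll3 for the representative probe set of Sox11 (3.56 points), Adsl for Sox12 (5.75 points) and Zbed3 for Sox10 (2.88 points). Vgll3 was low on the same array as Sox11, with -98.2 on the BCSP array of experiment 1 and -40.3 to -18.5 on the others. Sap30l was high on both arrays of experiment 1 (53.4 and 47.0) and below 0 on both of experiment 4 (-4.79 and -17.8), as Sox8 was.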

How the data were processed

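RNA of sorted SSCs and BCSPs was amplified by the authors in repeated rounds, hybridized to Affymetrix arrays and scored on Gene Expression Commons, which compares an array with a common reference of public arrays and sets the threshold of a probe set by StepMiner. The deposited table holds this activity score for 45101 probe sets (-100.03 to 100). How probes were summarised is not stated by the labels or methods, and the values were used as deposited, without fold changes. After removal of 64 controls, 45037 probe sets were tested. The platform annotation gave 1 symbol to 34958 probe sets, several to 932 and did not list 9211; 0 symbols changed through RefSeq identifiers. Where 1 value per gene was needed, the probe set scoring highest on average was taken. A gene of a list called above 0 on all 8 arrays can therefore rest on 1 of several probe sets. This was so, for example, for Sox21, Erg, Fzd1 and Fgfr3, each with 1 of 2.

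The cell types were contrasted in limma 3.58.1 under R 4.3.3 by lmFit and eBayes, with a trend and without a block, with Benjamini-Hochberg adjustment over all probe sets at 0.05, and experiments with an F test beside the cell type. The fits were tested on simulated scores. P-values of the contrast between SSCs and BCSPs weigh a difference against the spread of arrays within a population. Without a block this spread includes differences between experiments, and the number of 8 arrays limits the precision. The members, the gene lists and the tests were chosen with earlier results of these data known. All members were named, and from the other Sox, cartilage, endothelial, Schwann cell, melanocyte, SoxC-linked and regulator lists the genes with the highest and the lowest mean and the 2 with the largest difference; other genes are examples chosen after their values were seen. The lists held 9 names without a probe set of their own, not analysed here. Motifs were searched with Python 3.11.15.

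The title of the BCSP array of experiment 2 numbers it differently from its description, which was followed. After group means were subtracted, the 2 arrays of experiments 1 to 4 correlated at 0.399, 0.177, 0.572 and 0.183, and every array was closest to the one with its own number, so the numbers were taken to pair the arrays and the block was run as an alternative. Other alternatives were quantile normalization, centring, 1 probe set per gene, averaging the probe sets of a gene, no trend, a filter on low scores, the methods' t-test, other thresholds for an active score and leaving out each array. Leaving out both arrays of an experiment was added after seeing the data. A pseudocount does not apply to this score.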

Additional observations from a re-analysis of the deposited data

Results flagged for a closer look

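Among 76 groups of 4 arrays (38 Sox probe sets in 2 populations), 11 had 1 array set apart from the other 3 by Dixon's criterion. It flags about 1 group in 20 by chance if values are normal and independent. These scores level off at both ends, and the probe sets share arrays. The same count over all probe sets was not made, so no excess in Sox genes is read from it. For Sox11, the BCSP array of experiment 1 scored -99.95 against -30.0 to -23.4 on the others with the representative probe set, and with another the SSC array of experiment 4 scored -91.3 against -58.9 to -53.1. For Sox4, the SSC array of experiment 1 scored 21.3 against 3.98 to 6.71 with the representative probe set and 3.93 against -8.65 to -6.81 with the next highest. With other Sox4 probe sets, the SSC array of experiment 3 scored -28.1 against -14.8 to -12.5 and the BCSP array of experiment 1 scored -66.7 against -98.7 to -93.4. For Sox5, the BCSP array of experiment 4 scored 89.3 against 95.2 to 95.4 with a probe set near the upper end, and with the lowest one the SSC array of experiment 3 scored 70.8 against -24.03 to -11.3. For Sox6, the BCSP array of experiment 1 scored 98.1 against 99.04 to 99.2 with the representative probe set. For Sox17, the SSC array of experiment 4 scored -96.2 against -83.2 to -82.1 with the probe set that did not separate the populations. For Sox18, the BCSP array of experiment 4 scored -52.3 against -37.4 to -34.7. The array set apart was not the same from gene to gene.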

How the results depend on the processing

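Between SSCs and BCSPs, 0 Sox probe sets and 0 of all probe sets were called under every alternative run, including the experiment as a block in the paired fit (0 calls, 2268 of all probe sets at an unadjusted p under 0.05, smallest adjusted p 0.933) and the methods' t-test (1094 unadjusted, 0 after Benjamini-Hochberg). The block changed no call. The smallest adjusted p of all probe sets was 0.552 with the methods' t-test. Without the SSC array of experiment 4 it was 0.06515 from limma, near the threshold. The differences of Sox10, Sox12, Sox17 and Sox18, read from the representative or the averaged probe sets, kept their sign throughout, but not their size. Leaving out single arrays, Sox12 ranged from 0.752 (without the BCSP array of experiment 3) to 24.2 (without that of experiment 2), next to 13.5 with all arrays, and Sox10 from 1.58 (without the SSC array of experiment 2) to 13.2 (without that of experiment 3), next to 7.41. Averaging probe sets put Sox12 at 1.28. With all arrays the other Sox12 probe sets differed by -10.9 and 1.26 points, so the sign was not shared by all probe sets of the gene. Sox17 ranged from -61.1 to -48.1 and Sox18 from -28.4 to -19.2, and leaving out both arrays of an experiment Sox17 stayed within -59.01 to -45.2.

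Differences near 0 changed sign. With quantile normalization Sox8 was 1.1. With centring on array medians Sox8 was 0.298, Sox11 0.350 and Sox6 0.11. With all probe sets of a gene averaged, Sox4 was 3.48, Sox11 5.23, Sox5 4.55 and Sox9 -0.0242. Leaving out single arrays, Sox11 ranged from -18.4 to 7.08, Sox8 from -14.0 to 13.4, Sox5 from -1.62 to 0.0642, Sox6 from -0.598 to 0.145 and Sox9 from -0.0275 to 0.0725.

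The count of probe sets that differ between experiments was 448, and 1147 with quantile normalization, 1418 with centring, 250 with 1 probe set per gene (fewer tested) and 0 without a trend; the cause was not tested. The Sox count was 0, and 1 with quantile normalization and 1 with centring, a Sox11 probe set. The 12 active Sox probe sets were 10 above a score of 20, 14 above the inactive reference, 4 when counted as genes, 12 without any single array and 13 without experiment 4. With 4 arrays a group and no block, intervals for genes off the ends of the scale were wide, such as -44.2 to 44.0 points for Sox8. Without a block, differences between experiments stay in the error. Within experiments 1 to 4 the Sox8 difference was 1, -22.5, 18.2 and 2.79 points. At the ends the score levels off.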

Other observations

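Of 9 other Sox genes measured, 1 was above 0 on all 8 arrays, next to 25% of all genes, and 3 were below 0 on all 8. The active one was Sox21, a SoxB gene, at 42.2, 60.2, 23.9 and 50.3 on the SSC arrays of experiments 1 to 4 and 43.2, 20.8, 20.7 and 27.6 on the BCSP arrays. Its means were 44.2 ± 15.4 in SSCs and 28.1 ± 10.6 in BCSPs (SD, n = 4 each), with overlap. Sox21 had 2 probe sets, and the other was not above 0 on all 8 arrays. Sox7, the third gene of the SoxF group, crossed 0 in both populations and did not separate them (-14.2 ± 29.96 and -0.743 ± 59.4, SD, n = 4). Sox13, the third of SoxD, was the lowest of the 9 at -64.2 ± 8.91 in SSCs and -56.8 ± 10.9 in BCSPs (SD, n = 4 each). Its 1 probe set was below 0 on all 8 arrays, where the representative probe sets of Sox5 and Sox6 were above 0. None of the 9 was called by limma between the populations.

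Among the regulators set beside the Sox genes, Nkx3-2, a repressor that acts with Sox9 in early cartilage, had the largest difference. It scored 63.2, 72.7, -51.1 and 24.6 in SSCs and 95.8, 92.0, 86.0 and 72.6 in BCSPs. It was lower in SSCs in 4 of 4 experiments, with the SSC array of experiment 2 just above the BCSP array of experiment 4, and the difference was -59.3 (adjusted p = 1 from limma). The next largest was that of Arid5b, a cofactor of Sox9 in chondrocytes, at -12.6 ± 16.9 in SSCs and 4.45 ± 13.6 in BCSPs (SD, n = 4 each). Laptm5, the highest of the macrophage list, scored 27.4 ± 58.7 in SSCs and -15.2 ± 14.5 in BCSPs (SD, n = 4 each), while the other 4 macrophage genes were below 0 on every array.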
